A study of Homo sapiens with 6 samples.

Results

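The genes examined were 40 genes of the lysosome, namely 3 transcription factors that control lysosomal genes, 5 proteins of the lysosomal membrane, 23 hydrolases and their helper proteins, and 9 subunits of the vacuolar proton pump. They were taken by symbol from a table of 60605 genes, all 40 were present, and all 40 were tested. The table came from poly(A) RNA sequencing of MDA-MB-231, a human triple-negative breast cancer cell line, in 2 groups of 3 libraries. Cells of the control group (shControl) carried a control short hairpin RNA, and cells of the knockdown group (shPUS1) carried a hairpin against PUS1, the enzyme that converts uridine to pseudouridine in tRNA, mRNA and other RNAs. Both groups are stable lines made, per the study's methods, with a puromycin-resistant lentiviral vector and kept in puromycin, and which PUS1 hairpin the sequenced cells carried is not named. Nothing in the sources used here says that replicates came from separate selections, so the p-values measure the spread between these libraries only.

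The lysosome is the acidic organelle in which cells break down proteins, sugars, lipids and spent organelles delivered by endocytosis and autophagy. Its interior is kept acid by the vacuolar proton pump, in which a cytosolic sector named V1 splits ATP and turns a rotor that drives protons through a sector named V0 in the membrane. TFEB, TFE3 and MITF are related transcription factors that enter the nucleus when nutrient signalling through mTORC1 falls, and they bind E-box sequences near the start sites of many lysosomal genes. Cathepsins released by breast cancer cells are also studied for their part in matrix breakdown and invasion.

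PUS1 mRNA was measured at 14.5, 27.5 and 12.1 CPM (the count scaled to a common library size through each library's total and TMM factor) in shControl replicates 1, 2 and 3. In shPUS1 replicates 1, 2 and 3 it was at 6.57, 5.47 and 5.37 CPM, below every control library. The log2 fold change, given throughout as shPUS1 relative to shControl, was -1.64 (standard error 0.32, adjusted p = 0.0462 in edgeR's quasi-likelihood test over 14748 genes). Without shControl replicate 2, the highest control, the log2 fold change was smaller, at -1.20 (adjusted p = 0.00311). Without shControl replicate 3 it was -1.86 (adjusted p = 0.0458). The adjusted p was 0.0905 without shControl replicate 1 and 0.208, 0.253 and 0.192 without shPUS1 replicates 1, 2 and 3. In these last fits at most 11 genes of all those tested were called. PUS1 was lower in every library of shPUS1 in each case. Library totals lay between 14241505 and 19625998 estimated counts. One control library stood apart from all others. Across genes, Pearson's r of log2 CPM was 0.987 to 0.991 between shPUS1 libraries and 0.981 between shControl replicates 1 and 3, but 0.951 and 0.952 between shControl replicate 2 and the other controls. Every comparison was therefore made over all 6 libraries and again without shControl replicate 2. The basal-like markers VIM, CD44, EGFR, CAV1 and AXL were expressed in all libraries, while ESR1, PGR and FOXA1, which mark luminal breast cells, stayed under 1 CPM throughout. The other luminal markers read, GATA3 and ERBB3, were expressed in every library, at 5.17 to 7.46 CPM and 7.86 to 36.2 CPM.

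The first question was how much lysosomal mRNA the cells held. Summed over the 40 genes, the share of all counts was 0.505%, 0.441% and 0.486% in shControl replicates 1, 2 and 3 and 0.513%, 0.531% and 0.519% in the shPUS1 replicates. The proton pump genes took 0.0772%, 0.0754% and 0.0716% in shControl and 0.087%, 0.0911% and 0.0916% in shPUS1, so these groups did not overlap. Transcription factor shares did not overlap either, at 0.0148%, 0.0108% and 0.0135% against 0.0179%, 0.0186% and 0.0183%. Most of these counts were of TFE3, with 1700 in shControl replicate 1 beside 378 of MITF and 145 of TFEB. TFEB alone overlapped between groups. Taken singly, 18.8% of all tested genes were higher without overlap between groups, and 17.3% were lower. Shares of the 23 hydrolases and helpers did overlap, at 0.343%, 0.284% and 0.331% in shControl and 0.338%, 0.349% and 0.339% in shPUS1. The 5 membrane proteins were also mixed between groups, from 0.0699% to 0.071% in shControl and from 0.0704% to 0.0727% in shPUS1. In bulk RNA a smaller share of cells expressing a gene and less of its RNA per cell cannot be told apart.

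Levels per length, in the FPKM units of the deposited table, spread over a wide range among the 40 genes. FPKM divides by the deposited exonic length, so its order of genes differs from that of the counts. CTSZ, with a length of 19384 bases, had rank 21 with a mean of 11.9 FPKM, at a mean of 226 CPM in shControl. LAMP1, with a length of 5741 bases, had a mean of 32.5 FPKM, at a mean of 193 CPM in shControl. PSAP, the precursor of the saposins that help degrade sphingolipids, was the most abundant, at 277.88, 161.73 and 242.42 FPKM in shControl and 273.74, 284.06 and 267.49 FPKM in shPUS1. CTSD, the main aspartic protease of the lysosome, followed at 73.33, 95.58 and 78.48 FPKM in shControl and 93.15, 104.49 and 94.31 FPKM in shPUS1. CD63, a tetraspanin of late endosomes and exosomes, was at 83.88, 89.03 and 78.25 FPKM in shControl and 83.01, 87.96 and 93.92 FPKM in shPUS1. Among these abundant genes only PSAP stood clear of the next, since its lowest library exceeded the highest of CTSD, while CTSD and CD63 overlapped. ATP6V0E1, NPC2 and GRN came next, with mean levels of 76, 72 and 63.1 FPKM, and CTSB and LAMP1 had means of 38 and 32.5 FPKM. The lowest levels belonged to TFEB, CTSH, ARSA and MANBA, with means of 1.21, 0.993, 0.702 and 0.55 FPKM, and MANBA rested on 95 to 137 counts per library.

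**Figure D1:**
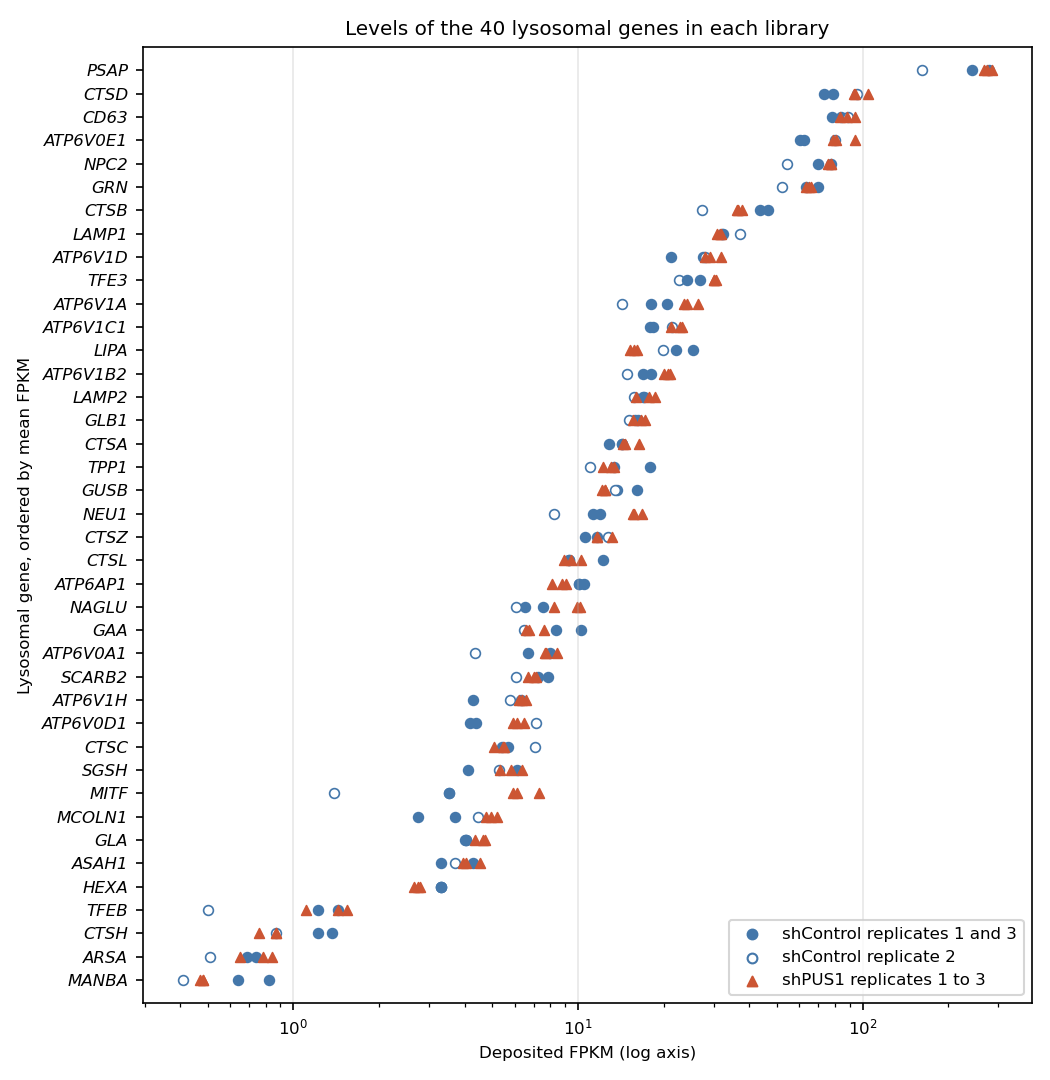
Deposited FPKM (log axis) of each of the 40 lysosomal genes, ordered by their mean, with 1 point per library for shControl replicates 1 and 3 (filled circles), shControl replicate 2 (open circles) and the 3 shPUS1 replicates (triangles). Means run from 251 FPKM for PSAP to 0.55 FPKM for MANBA, and the open circle lies at or beyond the edge of the other points for many genes, as for MITF, TFEB and PSAP.

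Over all 6 libraries, 0 of the 40 genes passed an adjusted p of 0.05 in edgeR, where 1.74% of all tested genes were higher and 0.841% lower in shPUS1. The smallest adjusted p was 0.0609, for NEU1. This fit had little power for small differences. In simulated counts the same test recovered 0 of 200 altered genes at a log2 fold change of 0.5. At 1 it recovered 92 of 200, and at 1.5 it recovered 169 of 200. Absolute log2 fold changes were below 0.5 for 36 of the 40 lysosomal genes. The absence of calls therefore does not show that these genes were unchanged. At an unadjusted p under 0.05, 6 lysosomal genes were higher and 1 was lower, that is MITF, NEU1, ATP6V1A, NAGLU, ATP6V1B2 and TFE3 on one side and LIPA on the other, with 12.6% and 12.8% of all genes past that line. Groups did not overlap for 10 genes that were higher in shPUS1 and 5 that were lower, with a background of 18.8% and 17.3%. DESeq2 called 4 genes higher (MITF, NEU1, NAGLU and ATP6V1A) and 1 lower (LIPA), against a background of 7.30% and 5.58%. In limma's voom with sample weights, which gave shControl replicate 2 a weight of 0.101, 10 were higher and 2 lower, against 11.5% and 9.48%. The median log2 fold change of the 40 genes was 0.18, beside -0.03 over all tested genes, and 28 of the 40 (70%) were above 0, beside 47.3% of all genes.

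Without shControl replicate 2, edgeR called 9 lysosomal genes higher in shPUS1 and 3 lower. The background was 9.80% and 8.79% of 15130 genes, so 22.5% of the lysosomal genes stood beside 9.80% on the higher side and 7.5% beside 8.79% on the lower side. Here and in what follows, a gene is called where edgeR gave it an adjusted p under 0.05, unless another tool is named. The 9 genes were MITF, MCOLN1, CTSD, NEU1, NAGLU, ATP6V0D1, ATP6V0E1, ATP6V1A and ATP6V1C1, and the 3 were CTSH, MANBA and LIPA. DESeq2 on the same 5 libraries called 11 higher and 3 lower, against 12.4% and 8.06%, and these were not all the same genes. DESeq2 added TFE3 and ATP6V1B2 to the 9 higher genes, and on the lower side it called CTSB (adjusted p = 0.044) and did not call MANBA (adjusted p = 0.121). Leaving out a further shPUS1 library gave fewer calls, among the lysosomal genes and over all genes. Without shPUS1 replicate 1, 2 lysosomal genes were higher and 0 lower, beside 559 and 402 of 14857 genes. Without shPUS1 replicate 2 it was 4 and 1, beside 646 and 489 of 14786 genes. Without shPUS1 replicate 3 it was 7 and 2, beside 1045 and 773 of 14863 genes. MITF and ATP6V0D1 were called in each of these fits. NEU1, LIPA and ATP6V0E1 were called without shPUS1 replicates 2 and 3. MCOLN1, CTSD, NAGLU and CTSH were called only without shPUS1 replicate 3, and MANBA, ATP6V1A and ATP6V1C1 in none of these fits. Leaving out a further control left 1 control, so its calls are not given. The groups were free of overlap for 18 higher and 8 lower genes, where 25% and 25.8% of all genes were. A fold of at least 2 in linear terms, or 1 on the log2 scale, together with the adjusted p was met by 0 of the 40 genes in either fit, where the background was 0.888% higher and 0.481% lower over all 6 libraries and 1.63% and 1.66% without shControl replicate 2. The median log2 fold change was 0.14, beside -0.02 for all genes. For 23 of the 40 genes, shControl replicate 2 lay outside the range of the other 5 libraries, as the highest for 5 and the lowest for 18. The corresponding share over all tested genes was 66.4%, beside 57.5% of the lysosomal genes.

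**Figure D2:**
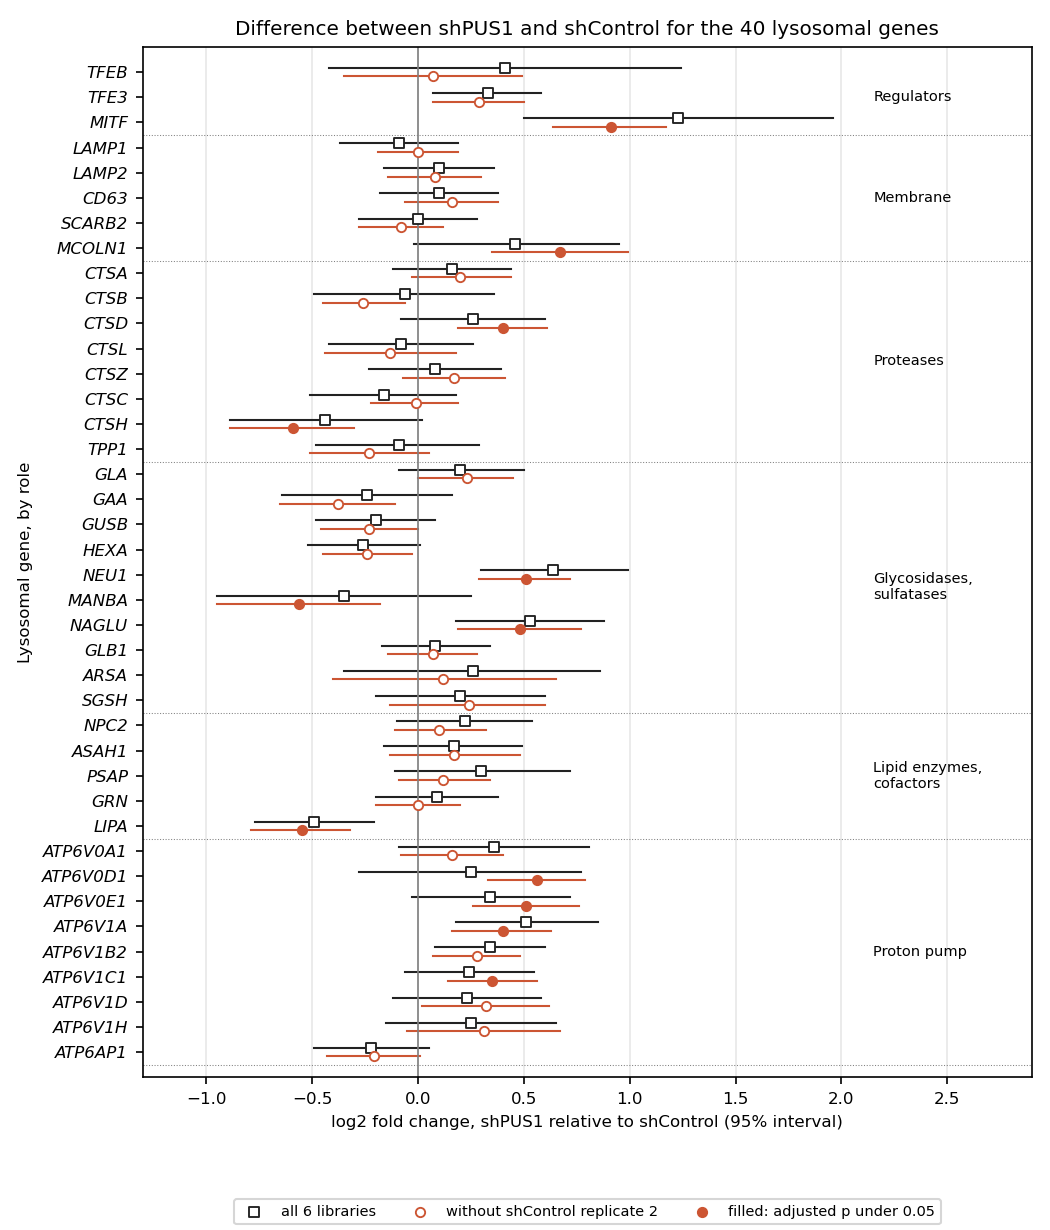
Log2 fold change of shPUS1 relative to shControl with its 95% interval for each of the 40 genes, grouped by role, over all 6 libraries (squares) and without shControl replicate 2 (circles, filled where the adjusted p was under 0.05). No square passed the threshold, 12 circles were filled, and 8 of the 9 proton pump genes lay above 0 in both fits.

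Among the transcription factors, MITF was the gene with the largest difference of the 40. Its gene spans chr3:69739464-69968336 on the plus strand (coordinates of the deposited table, in which all 40 genes overlap their entries in GENCODE release 29 on GRCh38). MITF was at 24.7, 10.2 and 24.5 CPM in shControl replicates 1, 2 and 3 and at 42.8, 52.2 and 44.2 CPM in shPUS1. Every shPUS1 library was above every control, and replicate 2 was the low one among the controls. MITF differed by 1.23 on the log2 scale (95% interval 0.50 to 1.96, adjusted p = 0.0729) over all 6 libraries and 0.91 (0.64 to 1.17, adjusted p = 0.00273) without replicate 2, a fold of 1.88. TFE3 was at 111, 97.8 and 98.8 CPM in shControl and at 129, 127 and 130 CPM in shPUS1. Its groups were also apart, but the difference was small, and the log2 fold change came to 0.33 over all 6 libraries (adjusted p = 0.129) and 0.29 without replicate 2 (adjusted p = 0.0686 in edgeR and 0.0296 in DESeq2). TFEB, often described as the main switch of lysosomal genes, was at 9.49, 3.46 and 7.97 CPM in shControl and at 9.79, 7.5 and 10.4 CPM in shPUS1. The groups overlapped, and the log2 fold change moved from 0.41 (adjusted p = 0.491) to 0.07 (adjusted p = 0.806) without replicate 2, which held the lowest value. These mRNA levels do not show where in the cell the factors were, which is the step at which they are known to be controlled.

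The E-box these factors bind is CACGTG, and the CLEAR element of lysosomal promoters is built around TCACGTGA. Both read the same on either strand, and every TCACGTGA holds a CACGTG. RefSeq promoter windows on GRCh38.p14, from 250 bases before to 50 bases after each start, were at hand for 26 of the 40 genes, and not for LAMP2, CTSB, HEXA, MANBA, NAGLU, ARSA, SGSH, ASAH1, PSAP, ATP6V0E1, ATP6V1A, ATP6V1B2, ATP6V1C1 and ATP6V1H. CACGTG stood in the windows of 8 of these 26 genes (30.8%), beside 8.77% of 27305 genes and 7.26% of 35116 promoters. TCACGTGA stood in those of 5 of the 26 (19.2%), beside 1.18% of genes and 0.98% of promoters. A match of letters is a description and no evidence of binding in these cells. The 130 bases before the start are shown for the 7 genes with a match there, because they let the spacing and flanks of the motif be compared between genes called higher without shControl replicate 2 and genes not called. Capitals mark CACGTG, or all of TCACGTGA where it is complete, and each line runs 5′ to 3′ toward the start site. In the first 4 genes below the mRNA was called higher without replicate 2, and in the last 3 it was not called.
MCOLN1, chr19:7522494-7522623, plus strand: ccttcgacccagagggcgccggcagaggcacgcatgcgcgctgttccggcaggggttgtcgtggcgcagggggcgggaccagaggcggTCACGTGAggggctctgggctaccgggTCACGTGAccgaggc
ATP6V0D1, chr16:67481158-67481287, minus strand: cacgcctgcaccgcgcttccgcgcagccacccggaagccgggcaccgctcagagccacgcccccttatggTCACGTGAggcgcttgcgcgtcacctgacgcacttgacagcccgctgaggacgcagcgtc
NEU1, chr6:31862822-31862951, minus strand: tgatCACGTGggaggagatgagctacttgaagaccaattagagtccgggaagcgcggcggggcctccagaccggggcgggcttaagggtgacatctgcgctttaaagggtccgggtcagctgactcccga
CTSD, chr11:1763928-1764057, minus strand: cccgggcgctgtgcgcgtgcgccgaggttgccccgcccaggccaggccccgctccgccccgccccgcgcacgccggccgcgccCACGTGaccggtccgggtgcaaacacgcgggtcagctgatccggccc
LAMP1, chr13:113297109-113297238, plus strand: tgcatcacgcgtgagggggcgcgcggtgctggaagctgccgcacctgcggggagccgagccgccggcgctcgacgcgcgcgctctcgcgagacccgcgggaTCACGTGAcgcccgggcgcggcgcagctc
GAA, chr17:80101451-80101580, plus strand: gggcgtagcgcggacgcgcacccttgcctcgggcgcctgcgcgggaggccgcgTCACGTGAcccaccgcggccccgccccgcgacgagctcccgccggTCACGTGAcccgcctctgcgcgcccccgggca
CTSA, chr20:45891205-45891334, plus strand: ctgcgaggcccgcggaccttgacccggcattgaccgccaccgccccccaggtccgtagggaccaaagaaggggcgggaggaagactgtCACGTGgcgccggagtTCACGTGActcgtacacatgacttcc

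MCOLN1, GAA and LAMP1 each carry a pair of complete TCACGTGA elements in their windows. MCOLN1 was called higher without replicate 2, while GAA stood at -0.24 on the log2 scale (adjusted p = 0.412) over all 6 libraries and at -0.38 (adjusted p = 0.0582) in the other fit. In MCOLN1 the elements begin 42 and 15 bases before the start, and in GAA 77 and 32 bases before it. NEU1 and CTSD hold only the core CACGTG in the window, beginning 126 and 47 bases before the start. LAMP1 has the most matches of the group, with 6 CACGTG in its window, and its complete elements begin 29 and 2 bases before the start, so that the latter crosses the start and runs past the end of the stretch shown. The LAMP1 mRNA was not called, and its log2 fold change was -0.09 (adjusted p = 0.666) over all 6 libraries and 0.00 without replicate 2. CD63, the eighth gene with the motif, has its match 180 bases before one of its starts, outside the stretch shown for the others.

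Of the 5 membrane proteins, MCOLN1 was the one called higher without shControl replicate 2. It encodes TRPML1, the channel that releases calcium from lysosomes, and spans chr19:7522624-7534009 on the plus strand. MCOLN1 was at 10.7, 18.2 and 14.2 CPM in shControl and at 19.1, 20.6 and 19.7 CPM in shPUS1. All shPUS1 libraries were above all controls, with shControl replicate 2 the nearest to them. MCOLN1 had a log2 fold change of 0.46 (95% interval -0.02 to 0.95, adjusted p = 0.212) over all 6 libraries and 0.67 (0.35 to 0.99, adjusted p = 0.0159) without replicate 2. Its first bases overlap by 6 bases the end of PNPLA6 on the same strand, a gene with 820% of the counts of MCOLN1 and a difference of 0.37 on the log2 scale (adjusted p = 0.0207) without replicate 2, and the part of that overlap in the result was not tested. LAMP1 and LAMP2, heavily glycosylated proteins that coat the inner face of the membrane, overlapped between groups with and without replicate 2. LAMP1 was at 193 ± 22.1 CPM (SD, n = 3) in shControl and 181 ± 3.39 CPM (SD, n = 3) in shPUS1. LAMP2, whose isoform A also serves chaperone-mediated autophagy, had values of 0.10 (adjusted p = 0.598) over all 6 libraries and 0.08 without replicate 2 on the log2 scale. CD63 had values of 0.10 (adjusted p = 0.641) and 0.16 (adjusted p = 0.264), and in CPM its shPUS1 libraries were all above shControl replicates 1 and 3 but not all above replicate 2. SCARB2, the receptor that carries glucocerebrosidase to the lysosome, had values of 0.00 (95% interval -0.28 to 0.28) and -0.08.

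The 8 proteases were split in direction, with 3 above and 5 below 0 in both fits. CTSD (chr11:1752752-1764573, minus strand) was at 410.2, 560.2 and 434 CPM in shControl and at 538, 597 and 543 CPM in shPUS1. The high control was replicate 2, and it lay within the shPUS1 range. For CTSD this gave a log2 fold change of 0.26 (adjusted p = 0.302) over all 6 libraries and 0.40 (95% interval 0.19 to 0.61, adjusted p = 0.02) without replicate 2. A caution applies to CTSD, since 32.3% of the 100-base stretches of its transcripts also occur in an unnamed gene that overlaps it on the same strand, whose own counts came to 2.72% of those of CTSD. CTSH, a cathepsin that trims amino acids from the amino end of proteins (chr15:78921058-78949574, minus strand), was at 18.5, 12.3 and 16.3 CPM in shControl and at 10.6, 12.0 and 12.0 CPM in shPUS1. All shPUS1 libraries were below all controls, although shControl replicate 2 came within a fraction of 1 CPM of them. CTSH stood at -0.44 on the log2 scale (adjusted p = 0.211) and, without replicate 2, -0.59 (-0.89 to -0.30, adjusted p = 0.0168). The other 6 proteases were not called by edgeR in either fit, while DESeq2 called CTSB lower without replicate 2.

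Of these 6, the cysteine protease CTSB, much studied in breast cancer invasion, was at 483, 295 and 448 CPM in shControl and at 386, 400.2 and 388 CPM in shPUS1. The shPUS1 libraries sat between shControl replicate 2 and the other controls. Accordingly the log2 fold change was -0.06 (adjusted p = 0.854) over all 6 libraries and -0.26 (adjusted p = 0.07) without replicate 2. That last difference was past the threshold in DESeq2 (adjusted p = 0.044) and in edgeR scaled by library totals (adjusted p = 0.0387). CTSL, another cysteine protease, had values of -0.08 (adjusted p = 0.761) and -0.13. CTSZ, a carboxypeptidase, had values of 0.08 (adjusted p = 0.733) and 0.17, and NELFCD, which overlaps it on the opposite strand, had 46.7% as many counts. CTSC, which activates the granule proteases of immune cells, had values of -0.16 (adjusted p = 0.507) and -0.01. CTSL, CTSZ and CTSC were not called in either fit by edgeR or DESeq2. CTSA, which shields the sialidase NEU1 and the galactosidase GLB1 from breakdown, had values of 0.16 (adjusted p = 0.426) and 0.20. TPP1, which removes tripeptides and is lost in a form of neuronal ceroid lipofuscinosis, had values of -0.09 (adjusted p = 0.748) and -0.23.

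The 10 glycosidases and sulfatases included NEU1, which had the smallest adjusted p of the 40 genes over all 6 libraries, though not without replicate 2. NEU1, the sialidase that removes terminal sialic acids from glycoproteins (chr6:31857659-31862905, minus strand), was at 56.7, 40.8 and 52.7 CPM in shControl and at 77.2, 81.4 and 76.0 CPM in shPUS1. No shPUS1 library came near a control, and replicate 2 was again the lowest. NEU1 therefore had a log2 fold change of 0.64 (95% interval 0.30 to 0.99, adjusted p = 0.0609) over all 6 libraries and 0.51 (0.29 to 0.72, adjusted p = 0.0101) without replicate 2. NAGLU, an enzyme of heparan sulfate breakdown (chr17:42536241-42544449, plus strand), was at 18.7, 18.2 and 21.4 CPM in shControl and at 29.7, 29.9 and 24.5 CPM in shPUS1. Its groups did not overlap, and all 3 controls were close together. NAGLU had log2 fold changes of 0.53 (0.18 to 0.88, adjusted p = 0.0922) and 0.48 (0.19 to 0.77, adjusted p = 0.0346), and 8.78% of its 100-base stretches occur in an unnamed gene on the same strand. MANBA, the beta-mannosidase of glycoprotein breakdown (chr4:102630770-102760994, minus strand), was at 7.33, 4.98 and 9.33 CPM in shControl and at 5.56, 5.69 and 5.73 CPM in shPUS1. The low control was replicate 2, below all shPUS1 libraries. MANBA's log2 fold change was -0.35 (adjusted p = 0.425) over all 6 libraries and -0.56 (-0.95 to -0.18, adjusted p = 0.0495) without replicate 2, at the edge of the threshold, and 7.94% of its stretches occur in the pseudogene LRRC37A15P.

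The remaining 7 enzymes of sugar chains were not called by edgeR or DESeq2 in either fit. HEXA, the alpha subunit of beta-hexosaminidase that is lost in Tay-Sachs disease, was lower in all shPUS1 libraries than in all controls, at 52.2 ± 1.63 CPM (SD, n = 3) in shControl and 43.7 ± 1.31 CPM (SD, n = 3) in shPUS1. Its log2 fold change was -0.26 (adjusted p = 0.209) and -0.24 (adjusted p = 0.106) without replicate 2. GUSB, the beta-glucuronidase often used as a reference gene, was also without overlap, with values of -0.20 (adjusted p = 0.326) and -0.23. GLA, the alpha-galactosidase A lost in Fabry disease, lay on the other side without overlap, with values of 0.20 (adjusted p = 0.343) and 0.23. For GLA the strand of the counts matters, since RPL36A on the opposite strand overlaps it and had 349% as many counts, and the strand setting of the counting is not given in the sources used here. GLB1, the beta-galactosidase stained as a mark of senescent cells, was nearly level, with values of 0.08 (95% interval -0.17 to 0.34) and 0.07. ARSA, which removes sulfate from sulfatides, had values of 0.26 (adjusted p = 0.556) and 0.12. SGSH, which acts on heparan sulfate as NAGLU does, had values of 0.20 (adjusted p = 0.484) and 0.24. SLC26A11 overlaps SGSH on the opposite strand, had 49.4% as many counts and stood at 0.52 (adjusted p = 0.0175) without replicate 2, and its part in the SGSH counts was not tested. GAA, the glucosidase that degrades glycogen in lysosomes, is given with its promoter.

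Among the 5 lipid enzymes and cofactors, LIPA was the one called. LIPA is the acid lipase that frees cholesterol and fatty acids from the lipids of engulfed lipoproteins (chr10:89213569-89414557, minus strand). It was at 122, 100.4 and 105 CPM in shControl and at 78.1, 74.6 and 79.8 CPM in shPUS1. Every shPUS1 library was well below every control, and replicate 2 was close to replicate 3. For LIPA the log2 fold change was -0.49 (95% interval -0.77 to -0.21, adjusted p = 0.0688) over all 6 libraries and -0.55 (-0.79 to -0.32, adjusted p = 0.00922) without replicate 2, and DESeq2 called LIPA lower over all 6 libraries (adjusted p = 0.0178). In the deposited table LIPA overlaps the interferon-induced genes IFIT1, IFIT2 and IFIT3 on the opposite strand, whose counts came to 38.3%, 52.5% and 58% of those of LIPA. Without replicate 2 these genes had log2 fold changes of -0.58 (adjusted p = 0.0101), 0.78 (adjusted p = 0.0107) and -0.40 (adjusted p = 0.0335). An unnamed gene that also overlaps LIPA on the opposite strand had 27.9% as many counts and stood at 1.57 (adjusted p = 0.000605). The overlapping genes moved in both directions, and their part in the LIPA counts was not tested. The other 4 were not called. PSAP was at 717 ± 172 CPM (SD, n = 3) in shControl and 885 ± 23.7 CPM (SD, n = 3) in shPUS1, at log2 values of 0.30 (adjusted p = 0.318) and 0.12. NPC2, which hands cholesterol on inside the lysosome, had values of 0.22 (adjusted p = 0.346) and 0.10. ASAH1, the acid ceramidase, had values of 0.17 (adjusted p = 0.475) in both fits, with an adjusted p of 0.389 in the second. GRN, the precursor of the granulins, had values of 0.09 (adjusted p = 0.667) and 0.00.

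**Figure D3:**
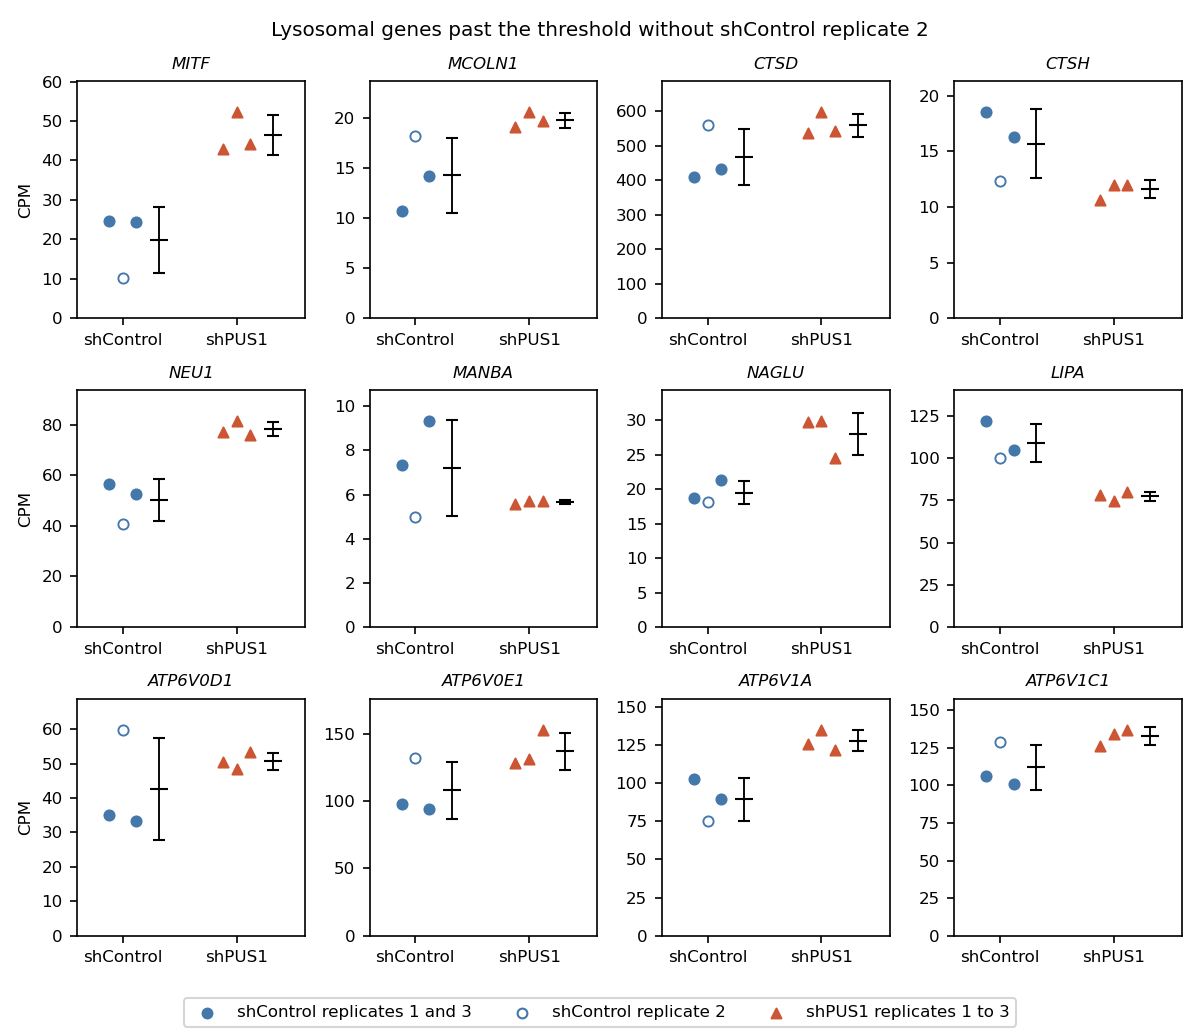
CPM in every library, on linear axes from 0, of the 12 lysosomal genes with an adjusted p under 0.05 when shControl replicate 2 was left out, with the mean and SD of each full group of 3 beside the points. The shPUS1 points (triangles) lie above the filled control points for 9 genes and below them for CTSH, MANBA and LIPA, and the open point of shControl replicate 2 falls among or beyond the shPUS1 points for CTSD, MANBA, ATP6V0D1, ATP6V0E1 and ATP6V1C1.

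The proton pump was the group with the most genes called higher by edgeR. Without shControl replicate 2, 4 of its 9 genes (44.4%) were higher and 0 lower, beside 9.80% and 8.79% of all genes. Over all 6 libraries edgeR called 0 of the 9, beside 1.74% and 0.841%, with 2 higher at an unadjusted p under 0.05. On those libraries DESeq2 called ATP6V1A higher, and voom called ATP6V0D1, ATP6V0E1, ATP6V1A, ATP6V1B2 and ATP6V1C1 higher. Its median log2 fold change was 0.25 over all 6 libraries and 0.32 without replicate 2, and 8 of the 9 genes were above 0 in both. In the membrane sector, ATP6V0D1, which couples the rotor to the proton channel (chr16:67438014-67481181, minus strand), was at 35.2, 59.8 and 33.2 CPM in shControl and at 50.5, 48.4 and 53.3 CPM in shPUS1. Replicate 2 was the highest of all 6 libraries, and the other controls were the lowest. ATP6V0D1 stood at 0.25 on the log2 scale (adjusted p = 0.519) over all 6 libraries and 0.56 (95% interval 0.33 to 0.79, adjusted p = 0.00844) without replicate 2. ATP6V0E1, a small membrane subunit (chr5:172983771-173035445, plus strand), was at 98.2, 132 and 94.1 CPM in shControl and at 128, 131 and 153 CPM in shPUS1. Here too replicate 2 sat with the shPUS1 libraries. For ATP6V0E1 it was 0.34 (adjusted p = 0.231) and, without replicate 2, 0.51 (0.26 to 0.76, adjusted p = 0.0166). ATP6V0A1, which forms part of the proton path, had values of 0.36 (adjusted p = 0.285) and 0.16 (adjusted p = 0.312).

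In the cytosolic sector, ATP6V1A, the catalytic subunit that splits ATP (chr3:113747033-113812056, plus strand), was at 103, 75.4 and 89.5 CPM in shControl and at 126, 135 and 122 CPM in shPUS1. The groups did not overlap with or without replicate 2. The log2 fold change was 0.51 (95% interval 0.18 to 0.85, adjusted p = 0.0886) over all 6 libraries and 0.40 (0.16 to 0.63, adjusted p = 0.0319) without replicate 2, and DESeq2 called it over all 6 libraries (adjusted p = 0.0276). ATP6V1C1, the subunit that joins the sectors when the pump assembles (chr8:103021063-103073051, plus strand), was at 106, 129 and 101 CPM in shControl and at 126, 134 and 137 CPM in shPUS1. Replicate 2 fell inside the shPUS1 range, and the others were below it. The log2 fold change was 0.24 (adjusted p = 0.278) and, without replicate 2, 0.35 (0.14 to 0.56, adjusted p = 0.032). ATP6V1B2, which pairs with ATP6V1A in the ATP-splitting ring, was above all controls in every shPUS1 library, at 129 ± 9.73 CPM (SD, n = 3) in shControl and 163 ± 3.6 CPM (SD, n = 3) in shPUS1, with values of 0.34 (adjusted p = 0.123) and 0.28 (adjusted p = 0.0628) in edgeR. It was not called by edgeR, but was called by voom over all 6 libraries and by DESeq2 without replicate 2 (adjusted p = 0.0208). ATP6V1D, a part of the rotor shaft, had values of 0.23 (adjusted p = 0.366) and 0.32, and MPP5 on the opposite strand, which overlaps it, had 153% as many counts. ATP6V1H, which regulates the activity of the sector, had values of 0.25 (adjusted p = 0.392) and 0.31. ATP6AP1, an accessory subunit needed to assemble the pump, was the exception in sign, at 57.8 ± 1.99 CPM (SD, n = 3) in shControl and 49.6 ± 2.74 CPM (SD, n = 3) in shPUS1, with values of -0.22 (adjusted p = 0.274) and -0.21 (adjusted p = 0.163).

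**Figure D4:**
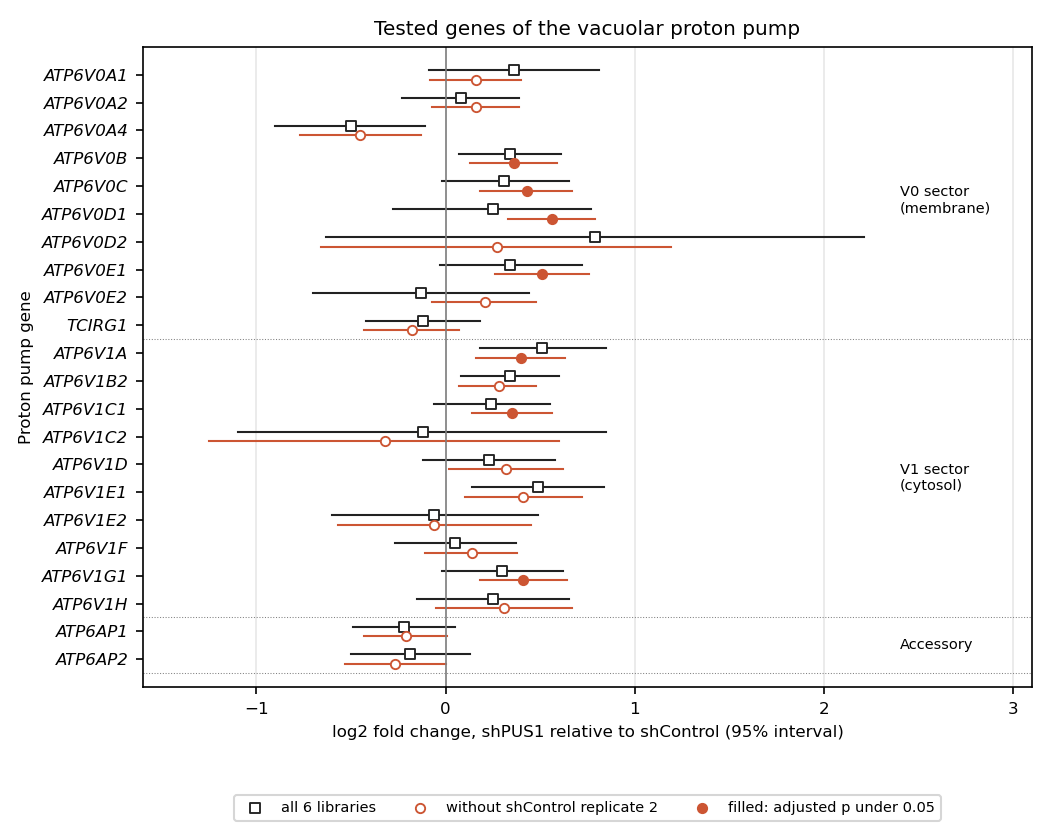
Log2 fold change of shPUS1 relative to shControl with its 95% interval for the genes of the vacuolar proton pump tested over all 6 libraries, by sector, over all 6 libraries (squares) and without shControl replicate 2 (circles, filled where the adjusted p was under 0.05). Of the filled circles 4 lie in the V0 sector and 3 in the V1 sector, all above 0, and both accessory genes lie below 0 without passing the threshold.

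Other lysosomal genes were read from a wider list of 104 genes, of which 99 were tested over all 6 libraries. Of these, 2 were called higher and 1 lower, at a background of 1.74% and 0.841%, and their median log2 fold change was -0.02, beside 0.18 for the 40 genes. FNIP1, which with FLCN controls the nutrient signal that keeps TFEB family proteins out of the nucleus, was at 63.7, 56.4 and 79.7 CPM in shControl and at 118, 139 and 106 CPM in shPUS1. RRAGC, one of the small GTPases through which that signal acts on the lysosome, was at 41.8, 35.6 and 34.8 CPM in shControl and at 57.8, 63.2 and 57.3 CPM in shPUS1. Neither gene's groups overlapped, and the log2 fold changes were 0.86 (adjusted p = 0.0467) for FNIP1 and 0.67 (adjusted p = 0.0462) for RRAGC. TMEM106B, a membrane protein of late endosomes and lysosomes, was at 55.2, 50.5 and 58.4 CPM in shControl and at 33.6, 35.2 and 29.2 CPM in shPUS1. It was lower in all shPUS1 libraries, by -0.74 on the log2 scale (adjusted p = 0.0418) and by -0.80 without replicate 2. All 3 calls were lost when shControl replicate 1 or any of the shPUS1 libraries was left out, with adjusted p from 0.0872 to 0.261. Those fits called few genes of any kind, from 0 to 11 higher and 0 lower over all tested genes. Without shControl replicate 2 all 3 were called, at adjusted p = 0.011 for FNIP1, 0.00934 for RRAGC and 0.00308 for TMEM106B. Without shControl replicate 3, FNIP1 was called (adjusted p = 0.0458), and RRAGC (0.0599) and TMEM106B (0.0524) were not.

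Without shControl replicate 2, 13 of 100 tested genes of the wider list were higher and 7 lower, which is 13% and 7% beside the 9.80% and 8.79% of all genes. In the group of genes that control TFEB and its relatives, 4 of 16 were higher and 0 lower, namely FNIP1, RRAGC, FLCN (log2 fold change 0.51, adjusted p = 0.0103) and TSC1 (0.45, adjusted p = 0.0483). By sign this group was split, with 8 above and 8 below 0 and a median of 0.00. LAMTOR1 to LAMTOR5 were all below 0, from -0.48 for LAMTOR3 to -0.11 for LAMTOR5, and were not called. FLCN, TSC1 and the LAMTOR genes were chosen after their values were seen. Among 36 further hydrolases, 2 were higher and 4 lower. For the pump, 3 subunits outside the 40 genes were higher, ATP6V0B (0.36, adjusted p = 0.041), ATP6V0C (0.43, adjusted p = 0.0286) and ATP6V1G1 (0.41, adjusted p = 0.0272), also named after their values were seen. With the members counted in, 7 of 23 tested pump genes were higher and 0 lower, which is 30.4% beside 9.80% of all genes. The pump genes outside the 40 were mixed in sign. Over all 6 libraries 7 were above and 6 below 0, with a median of 0.05. Without replicate 2 it was 8 and 6, with a median of 0.15. In that fit ATP6V0A4 (-0.45, adjusted p = 0.0587) and ATP6AP2 (-0.27, adjusted p = 0.139), likewise named after their values were seen, were lower but not called.

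Markers of other cell types were read beside these results. Of 6 macrophage markers, PTPRC, CD163, LYZ and TYROBP stayed under 1 CPM in every library, and the summed level of all 6 was 5.18 to 6.08 CPM in shControl and 4.12 to 5.96 CPM in shPUS1. Of 5 fibroblast markers, DCN and PDGFRA stayed under 1 CPM, and the sum was 7.23 to 22.3 CPM in shControl and 34 to 39.1 CPM in shPUS1. In that list edgeR called LUM higher over all 6 libraries, and LUM and COL1A1 without replicate 2, while DESeq2 called COL1A1 (adjusted p = 0.0162) as well as LUM over all 6. The basal-like markers summed to 4693 to 5986 CPM in shControl and 3744 to 3975 CPM in shPUS1, where edgeR called 0 of 5 over all 6 libraries and VIM and AXL lower without replicate 2. DESeq2 called VIM (adjusted p = 0.0333) and AXL (adjusted p = 0.00947) lower over all 6 libraries. The 5 luminal markers summed to 14.9 to 43.3 CPM in shControl and 30.4 to 34.4 CPM in shPUS1. Of these, GATA3 and ERBB3 were the 2 that could be tested, and 0 were called. The part of these markers in the lysosomal results was not tested.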

How the data were processed

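RNA was taken from 3 shControl and 3 shPUS1 libraries of MDA-MB-231. Per the study's methods, poly(A) RNA was sequenced in pairs on an Illumina NovaSeq, aligned with HISAT2 and counted with HTSeq 0.6.1. The genome build, annotation release and strand setting are not given in the sources used here. The authors deposited, for every gene and library, an estimated count that was not normalized (29.8% to 31.8% of those above 0 were not whole) and the FPKM they derived from it with the exonic length and the library total.

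Estimated counts were rounded, filtered with filterByExpr, scaled by TMM (factors 0.973 to 1.03) and entered into edgeR (version 4.0.16, under R 4.3.3), whose quasi-likelihood p-values were adjusted after Benjamini and Hochberg over all tested genes. The threshold was an adjusted p of 0.05, and the design had no covariate. DESeq2 1.42.0, limma 3.58.1 (voom with sample weights), other scalings, no filter, a replicate block and each library left out were alternatives. Leaving out a further library beside shControl replicate 2 was added after the data had been seen. Scripts were tested on simulated counts. Figures were drawn with matplotlib 3.10.9 in Python 3.11.15.

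The lysosomal genes, the wider list and the marker lists were chosen with earlier results of these data known. The rule for naming gave all 40 genes their log2 fold change, and values in every library to TFEB, TFE3, MITF, each gene called in either fit and the 3 with the highest mean FPKM, and from the wider list to up to 10 genes called over all 6 libraries. Gene positions are those of the deposited table, 12 of the 40 with the same start and end as GENCODE release 29 on GRCh38. Promoters are from RefSeq on GRCh38.p14, and for the 26 genes with an entry at least 1 RefSeq start lay inside the deposited gene. Transcripts of that GENCODE release were searched for shared stretches of 100 bases. Intervals are for 95% confidence, and those from counts cover the spread between libraries.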

Additional observations from a re-analysis of the deposited data

How the results depend on the processing

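Over all 6 libraries the count of lysosomal genes called was 0 higher and 0 lower with DESeq2 size factors, library totals and the replicate block. Of 14748 tested genes these settings called 262, 164 and 18 higher and 122, 132 and 0 lower. Without a filter on low counts 2 lysosomal genes were higher, beside 756 higher and 528 lower of 27010 genes. The lysosomal count was 4 higher and 1 lower with DESeq2's test, and 10 higher and 2 lower in voom with sample weights. Leaving out 1 library gave from 0 to 9 higher and from 0 to 3 lower, with calls only where shControl replicate 2 was the library left out. Over all tested genes, 11 were higher without shControl replicate 1, and 11, 6 and 0 without shPUS1 replicates 1, 2 and 3, with 0 lower in each. By contrast 1483 were higher and 1330 lower without shControl replicate 2, and 316 and 158 without shControl replicate 3. Where so few genes were called, a count of 0 is not particular to the lysosomal genes. Without shControl replicate 2, library totals gave 8 higher and 5 lower (CTSB and GAA added to the 3), DESeq2 size factors left MANBA uncalled, and leaving out a further library gave from 2 to 12 higher and from 0 to 4 lower. Where that library was a control, 1 control was left and was assumed to vary like the other libraries. For the wider list over all 6 libraries, library totals gave 0 higher, no filter 6, DESeq2's test 6 higher and 3 lower, the replicate block 0 and 0, and voom 14 and 8, with 0 to 13 higher and 0 to 7 lower when 1 library was left out. The PUS1 log2 fold change was -1.55 (adjusted p = 0.0969) with the replicate block and from -1.86 to -1.20 when 1 library was left out. Libraries with the same number had residual correlations of -0.0529, -0.0256 and -0.19, so the numbers did not pair them. The causes of these changes were not tested.

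Signs turned only for genes that edgeR called in neither fit. With library totals SCARB2 went to -0.02 over all 6 libraries, and LAMP1 and GRN to -0.04 without shControl replicate 2. Voom gave SCARB2 -0.04, and DESeq2 gave CTSC 0.00 without shControl replicate 2. With 1 of the 6 libraries left out the log2 fold change ran from -0.15 to 0.00 for LAMP1, -0.08 to 0.06 for SCARB2, -0.26 to 0.08 for CTSB, -0.17 to 0.06 for CTSL, -0.01 to 0.17 for CTSZ and -0.23 to 0.08 for TPP1. With a further library left out beside shControl replicate 2 it ran from -0.05 to 0.22 for TFEB, -0.02 to 0.03 for LAMP1, -0.33 to 0.11 for CTSL, -0.06 to 0.04 for CTSC, -0.00 to 0.53 for SGSH, -0.01 to 0.40 for ASAH1 and -0.05 to 0.06 for GRN. For the genes of lowest level, such as MANBA at 95 to 137 counts per library, depth limits the precision.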
